A study of Mus musculus with 2 samples.

Results

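The genes described here are 10 members of the unfolded protein response and the integrated stress response, measured in single cells of the mouse cochlea after noise. They were taken by symbol from the gene lists of both count matrices, as 10 of 32285 genes. Hspa5, Hsp90b1, Pdia4 and Xbp1 make up the chaperone arm, and Atf4, Ddit3, Asns, Trib3, Chac1 and Sesn2 the integrated stress arm. The 10 symbols stood on 11 rows, since Ddit3 was listed under 2 identifiers. ENSMUSG00000116429 had 0 UMIs in both libraries, and all Ddit3 values come from ENSMUSG00000025408.

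Proteins that enter the endoplasmic reticulum (ER) are folded by chaperones in its lumen, and unfolded protein that builds up there switches on the sensors PERK, IRE1 and ATF6. ATF6 and spliced XBP1 raise chaperone genes, whereas PERK, like the kinases that sense amino acid lack, haem lack and viral RNA, slows translation in general and favours translation of ATF4, which raises genes of amino acid supply and, with CHOP, genes linked to cell death. Secretory cells depend on this system, and ER stress has been studied in the cochlea as one route of hair cell damage after noise. The 3′ UMI counts used here show neither the splicing of Xbp1 nor the translation of Atf4.

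Both groups were C57BL/6J mice aged 4 to 6 weeks that received an octave band of 8 to 16 kHz noise at 105 dB for 2 hours, and tissue was taken 2 days later. The Drug-NIHL group held ears given a drug, which the labels do not name, at 90 mg/ml before the noise. The NIHL group held the untreated opposite ears of the same animals. Each group was 1 library of 5 pooled ears (10x Genomics 3′ v3.1 chemistry, after trypsin dissociation), and no ear without noise was analysed here, so a difference between groups cannot be told apart from a difference between libraries or between sets of ears.

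After filtering, 17536 Drug-NIHL cells with 30725156 UMIs and 16618 NIHL cells with 33790872 UMIs were kept. The median cell held 1128.5 UMIs in the Drug-NIHL library and 1128 UMIs in the NIHL library. The median mitochondrial share was 6.72% in Drug-NIHL cells and 4.86% in NIHL cells, and 111 barcodes occurred in both libraries. Clustering, done without the 10 members and without the pathway genes listed further on, gave 20 classes that held 50 or more cells in both libraries, each called by its cell type with "-like" (the mucosal or keratinised epithelium-like class is written mucosal epithelium-like, and osteoblast-like includes osteocytes). The hair cell-like class held 155 Drug-NIHL and 106 NIHL cells, and 10 of its 11 markers stood above 2 times their level in the other cells in both libraries. The neuron-like class held 457 Drug-NIHL and 441 NIHL cells, with markers summing to 15721 CPM (UMIs of the gene scaled to a fixed total per class and library) against 200.4 CPM in the other Drug-NIHL cells, and to 14878 CPM against 189 CPM in the other NIHL cells. The label of the tissue is sensory epithelium, and most cells were of other kinds: glia, fibrocytes, vessel, blood and mucosal cells. Transcripts of Ttr, a choroid plexus gene, were at 85.3 CPM in all Drug-NIHL cells and 4569 CPM in all NIHL cells, and were lower in the Drug-NIHL library in every one of the 20 classes. Haemoglobin transcripts also differed by class: Hbb-bs was at 8647 CPM in Drug-NIHL and 1434 CPM in NIHL hair cell-like cells, and at 47.4 CPM in Drug-NIHL and 1375 CPM in NIHL neuron-like cells. The part of Ttr and haemoglobin transcripts in the results below was not tested.

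The promoters of the members were searched for motifs of the pathway, and the stretches that hold a match are shown because they set apart the members described below (RefSeq promoter table, build GRCm38.p6, each read 5′ to 3′ on the gene's own strand, with positions counted from the start site). Capitals mark the matches. The ER stress element, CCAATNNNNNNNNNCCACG on either strand, was found in 39 of 32851 promoters (0.119%), and 2 of the 10 members hold it. In Hspa5 it begins at -65, and that promoter also holds a TGACGTG core of the unfolded protein response element at -157, which 661 promoters hold (2.01%). In Hsp90b1 it occurs at -212 and, on the other strand, at -107. The C/EBP-ATF element, TGATGNAA on either strand, was found in 1304 promoters (3.97%) and in 3 members: at -23 in Asns, at 15 bases past the start of Trib3 and at -193 in Chac1, the last 2 on the other strand. No match of the 3 motifs was found in the windows of Pdia4, Xbp1, Atf4, Ddit3 and Sesn2, which says only that these letters are not there. The searched motifs do not overlap one another in these sequences, and a match is a description, not a binding site or a cause.
Hspa5 (chr2:34771840-34772089, plus strand): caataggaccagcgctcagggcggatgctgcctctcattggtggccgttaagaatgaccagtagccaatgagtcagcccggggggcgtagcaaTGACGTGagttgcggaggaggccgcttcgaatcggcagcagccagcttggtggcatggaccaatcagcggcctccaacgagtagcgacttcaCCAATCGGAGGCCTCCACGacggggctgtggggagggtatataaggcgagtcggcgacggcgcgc
Hsp90b1 (chr10:86705445-86705694, minus strand): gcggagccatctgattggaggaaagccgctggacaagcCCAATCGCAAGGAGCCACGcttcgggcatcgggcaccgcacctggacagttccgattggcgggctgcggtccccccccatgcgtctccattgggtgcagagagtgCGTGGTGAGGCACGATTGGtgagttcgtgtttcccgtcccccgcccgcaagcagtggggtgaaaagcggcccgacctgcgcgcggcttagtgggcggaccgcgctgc
Asns (chr6:7693210-7693459, minus strand): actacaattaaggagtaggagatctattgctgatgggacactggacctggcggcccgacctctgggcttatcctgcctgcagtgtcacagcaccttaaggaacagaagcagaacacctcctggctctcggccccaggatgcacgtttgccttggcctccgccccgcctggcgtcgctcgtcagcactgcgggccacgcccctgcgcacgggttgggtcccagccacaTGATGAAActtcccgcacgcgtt
Trib3 (chr2:152344028-152344057, minus strand): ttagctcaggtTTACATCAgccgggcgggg
Chac1 (chr2:119350992-119351241, plus strand): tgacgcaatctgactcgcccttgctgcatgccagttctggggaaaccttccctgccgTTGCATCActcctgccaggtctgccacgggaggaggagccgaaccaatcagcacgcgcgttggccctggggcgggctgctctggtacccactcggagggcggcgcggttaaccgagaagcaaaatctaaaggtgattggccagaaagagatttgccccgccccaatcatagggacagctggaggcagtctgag

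Over all cells, none of the 10 members differed between the libraries by more than the bound used here, a log2 ratio of 0.32 in either direction, against 21.7% of the 17256 genes measured. Hspa5, which encodes BiP, the main HSP70 chaperone of the ER (ENSMUSG00000026864, chr2:34771970-34777547, GRCm38, plus strand), stood at 363 CPM in Drug-NIHL cells and 408 CPM in NIHL cells, from 11156 Drug-NIHL and 13792 NIHL UMIs. Its ratio of Drug-NIHL to NIHL was 0.890 (95% interval 0.868 to 0.912). This interval, like every one given here, covers counting error only, since there is 1 library per group and cells are not replicates. No test between groups was possible. Hsp90b1, which encodes the ER HSP90 chaperone GRP94 (ENSMUSG00000020048, chr10:86690209-86705509, minus strand), stood at 547 CPM in Drug-NIHL cells and 566 CPM in NIHL cells, a ratio of 0.966. Pdia4, a disulfide isomerase (ENSMUSG00000025823, chr6:47796141-47813430, minus strand), stood at 88.1 CPM in Drug-NIHL cells and 83.4 CPM in NIHL cells. Xbp1, the transcription factor whose RNA IRE1 splices (ENSMUSG00000020484, chr11:5520659-5525893, plus strand), stood at 116 CPM in Drug-NIHL cells and 101 CPM in NIHL cells. Its ratio, 1.14 (1.09 to 1.20), was the highest of the chaperone arm. The Xbp1 log2 ratio was 0.19, and it was 0.087, below its interval, with clusters weighted as in the NIHL library. Outside mucosal epithelium-like cells Xbp1 was at 106 CPM in Drug-NIHL and 99.8 CPM in NIHL cells. Schwann or satellite glia-like cells made up 22.4% of Drug-NIHL and 40.5% of NIHL cells. Their part in the Xbp1 value was not tested.

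The integrated stress genes lay as close. Atf4, the transcription factor of the response (ENSMUSG00000042406, chr15:80255184-80257541, plus strand), stood at 156 CPM in Drug-NIHL cells and 162 CPM in NIHL cells. Ddit3, which encodes CHOP (chr10:127290774-127296288, plus strand), stood at 58.3 CPM in Drug-NIHL cells and 65.6 CPM in NIHL cells, a ratio of 0.888 (0.834 to 0.946). Asns, the enzyme that makes asparagine (ENSMUSG00000029752, chr6:7675169-7693254, minus strand), had the lowest ratio of the 10, 0.816 (0.740 to 0.900), at 23.3 CPM in Drug-NIHL cells and 28.6 CPM in NIHL cells. Its log2 ratio was -0.29, and it was -0.005 when each cell's CPM was averaged in place of summing UMIs. Most Asns UMIs came from neuron-like cells, where the ratio was 0.921 (0.828 to 1.02). The remaining 3 were rare. Trib3, a pseudokinase that dampens ATF4 signalling (ENSMUSG00000032715, chr2:152337422-152344032, minus strand), had 70 UMIs in each library. Chac1, a glutathione-degrading enzyme (ENSMUSG00000027313, chr2:119351229-119354381, plus strand), had 65 UMIs in Drug-NIHL cells and 62 in NIHL cells. Sesn2, a stress-induced inhibitor of mTORC1 (ENSMUSG00000028893, chr4:132492032-132510501, minus strand), had 158 UMIs in Drug-NIHL cells and 171 in NIHL cells. The annotation places Gm15344 and Gm25745 over Hsp90b1, Mir704 over Pdia4 and Gm12981 over Sesn2 on the same strand. Of these, 1 over Hsp90b1 and the 1 over Sesn2 were among the counted genes. The 2 Ddit3 identifiers, both counted, also overlap each other on the same strand. On the opposite strand lie 1810014B01Rik, Gm4189 and Mars over Hsp90b1 or Ddit3. Reads in such overlaps, also those of Ddit3, could have been split, shared or left out. The median log2 ratio of the 10 members was -0.01, against -0.03 for all genes measured.

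The chaperones differed far more between cell types than between libraries. Hspa5 spanned 127 CPM in oligodendrocyte-like cells to 785 CPM in mucosal epithelium-like cells in the Drug-NIHL library, and 149 CPM in erythroid-like cells to 778 CPM in the other cochlear epithelium-like class in the NIHL library. Macrophage-like cells followed at 688 CPM in the Drug-NIHL library and stood at 655 CPM in the NIHL library. Of 19 neighbouring pairs in the order, 15 in the Drug-NIHL library and 16 in the NIHL library had overlapping intervals, so the order is firm only between distant classes. Hsp90b1 was highest in osteoblast-like cells in the Drug-NIHL library at 1037 CPM and in hair cell-like cells in the NIHL library at 946 CPM, and hair cell-like cells came second in the Drug-NIHL library at 942 CPM. The osteoblast-like class was mixed: a finer clustering, described below, kept part of it as osteoblasts, where Hsp90b1 was at 588 CPM in the Drug-NIHL library. Pdia4 was highest in supporting cell-like cells, a class named for the organ of Corti, in both libraries, at 230 CPM in Drug-NIHL and 201 CPM in NIHL cells. There it stood at 2.91 times the level of all other cells in the Drug-NIHL library and 2.63 times in the NIHL library. Part of this class was a cluster led by Tectb, Tecta and Otol1, whose place in the organ of Corti was not tested. Xbp1 was highest in mucosal epithelium-like cells in the Drug-NIHL library at 348 CPM and in meningeal-like cells in the NIHL library at 174 CPM, with fibrocyte-like cells second in both at 177 CPM in Drug-NIHL and 169 CPM in NIHL cells. Neuron-like cells came 17th of the 20 classes for Hspa5 in both libraries, at 195 CPM in Drug-NIHL and 240 CPM in NIHL cells.

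**Figure D1:**
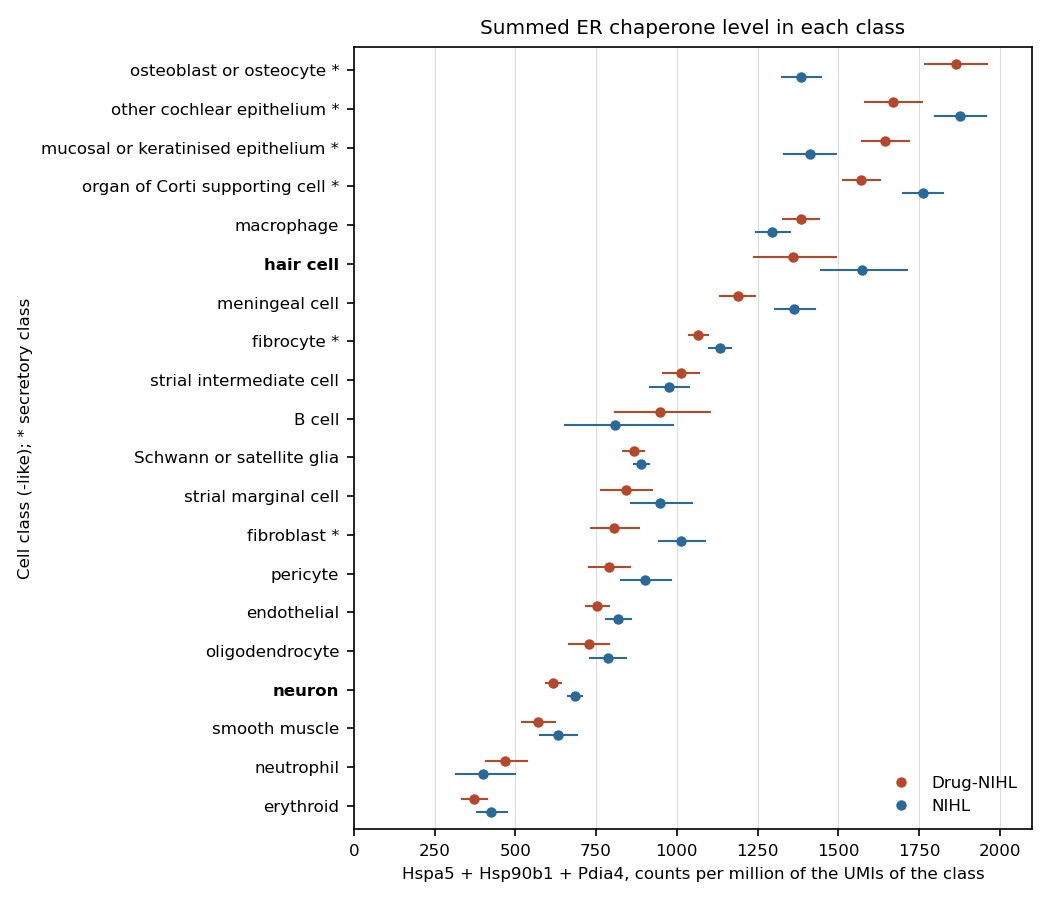
Summed level of Hspa5, Hsp90b1 and Pdia4 in CPM by cell class, with Drug-NIHL and NIHL as separate marks and exact 95% Poisson intervals for counting error. Other cochlear epithelium-like cells stand at 1669 CPM in Drug-NIHL and 1878 CPM in NIHL cells, neuron-like cells at 617 CPM in Drug-NIHL and 685 CPM in NIHL cells.

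Secretory classes were set against neurons and hair cells by the sum of the 3 chaperones. Named as secretory by their known biology were fibrocytes, fibroblasts, osteoblasts, supporting cells, the other cochlear epithelium and mucosal epithelium. All 6 stood above neuron-like cells in both libraries, with intervals above 1. So did 10 of the 13 other classes by their levels, such as macrophage-like cells at 1383 CPM in Drug-NIHL and 1296 CPM in NIHL cells, and only smooth muscle-like, neutrophil-like and erythroid-like cells stood below neurons in both, so the contrast is not particular to secretory classes. Over the 6 secretory classes the median ratio was 2.61 in the Drug-NIHL library, between 1.31 in fibroblast-like and 3.02 in osteoblast-like cells, and 2.04 in the NIHL library, between 1.48 in fibroblast-like and 2.74 in other cochlear epithelium-like cells. The value of 3.02 is that of a mixed class. In its Drug-NIHL cells placed with fibroblasts by the finer clustering, Hspa5 was at 766, Hsp90b1 at 1384 and Pdia4 at 277 CPM. In those kept as osteoblasts Hspa5 was at 431, Hsp90b1 at 588 and Pdia4 at 113 CPM. Pdia4 had the widest gap, with medians of 4.37 in the Drug-NIHL library and 2.77 in the NIHL library. The medians for Hspa5 were 3.03 in the Drug-NIHL and 2.60 in the NIHL library, and for Xbp1 2.04 in the Drug-NIHL and 2.33 in the NIHL library. The cells differ in depth: the median neuron-like cell held 9867 UMIs in the Drug-NIHL library and 12830 in the NIHL library.

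Against hair cell-like cells the secretory classes were not set apart. Their summed chaperones had a median ratio of 1.18 in the Drug-NIHL library, where 4 of 6 classes stood above hair cells and 2 below, and 0.888 in the NIHL library, where 2 stood above and 4 below. The members split here. Hspa5 was higher in secretory classes, with median ratios of 1.96 in the Drug-NIHL and 1.33 in the NIHL library, while Hsp90b1 was lower, at 0.802 in the Drug-NIHL and 0.701 in the NIHL library. The summed level in hair cell-like cells, 1361 CPM in Drug-NIHL and 1574 CPM in NIHL cells, was above that of fibrocyte-like cells, 1067 CPM in Drug-NIHL and 1133 CPM in NIHL cells. Atf4 was above its hair cell-like level in all 6 secretory classes, with medians of 1.88 in the Drug-NIHL library, where 6 of 6 intervals lay above 1, and 1.23 in the NIHL library, where 2 of 6 did. Against neuron-like cells the Atf4 medians were 1.13 in the Drug-NIHL and 1.03 in the NIHL library, and those of Asns were 0.0233 in the Drug-NIHL and 0.0222 in the NIHL library.

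Hspa5 was below 1 in the ratio of Drug-NIHL to NIHL in 14 of 20 classes, with the interval wholly below 1 in 9 and above 1 in 2. Its median log2 ratio over the classes was -0.18. The median of all genes was also below 0 in most classes. It ran from -0.18 in erythroid-like to 0.01 in mucosal epithelium-like cells. An even split around 1 is therefore not the baseline for the 14 classes. In hair cell-like cells Hspa5 stood at 302 CPM in the Drug-NIHL library, from 100 UMIs, and 470 CPM in the NIHL library, from 164 UMIs, a ratio of 0.642 (0.495 to 0.828). This was the lowest Hspa5 ratio of the 20 classes. Its log2 value was -0.64, and it was -0.26 when each cell's CPM was averaged in place of summing UMIs, the 1 of 15 alternatives within the bound. Some of the 15, such as no minimum UMI sum, could not change this Hspa5 value. Fibroblast-like cells, at 348 CPM in Drug-NIHL and 471 CPM in NIHL cells, and oligodendrocyte-like cells, at 127 CPM in Drug-NIHL and 189 CPM in NIHL cells, were also past the bound. The fibroblast-like ratio was 0.739 (0.620 to 0.880) and the oligodendrocyte-like ratio 0.670 (0.517 to 0.863). Under other groupings these 2 were smaller: the log2 ratio of fibroblast-like cells was -0.08 at resolution 2.0, and that of oligodendrocyte-like cells was -0.11 with predicted doublets kept. Supporting cell-like cells stood at 562 CPM in Drug-NIHL and 698 CPM in NIHL cells, and neuron-like cells had a ratio of 0.814. The 2 classes with intervals above 1 were mucosal epithelium-like cells, at 1.11 (1.005 to 1.24), and osteoblast-like cells, at 1.13 (1.005 to 1.26). The osteoblast-like log2 ratio was 0.17, and it was -0.10 with each cell's CPM averaged. Macrophage-like cells had a ratio of 1.05, with an interval that held 1 (0.968 to 1.14). Schwann or satellite glia-like cells, 1 of the 9 classes, stood at a log2 ratio of -0.17. It was 1.12 where only cells of the same class with at least 1000 genes were kept. The number of classes with a log2 ratio below 0 was 13 to 15 under the alternatives, of 18 to 20 classes formed.

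**Figure D2:**
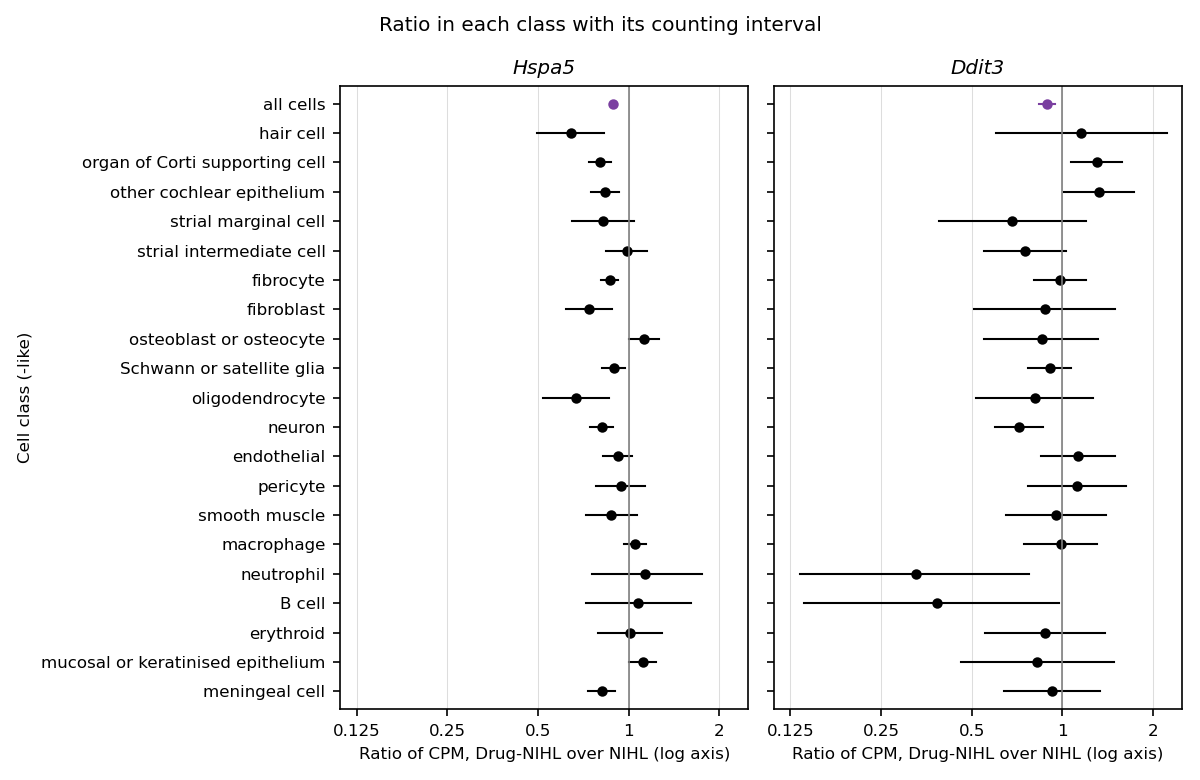
Ratio of Drug-NIHL to NIHL level of Hspa5 and Ddit3 in each cell class on a log axis, with exact 95% intervals for counting error. Hspa5 lies left of 1 in 14 of 20 classes, lowest in hair cell-like cells at 0.642, while Ddit3 lies at 1.30 in supporting cell-like and 0.721 in neuron-like cells.

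Of the other chaperone genes in hair cell-like cells, Hsp90b1 was within the bound and Pdia4 past the lower one. Hsp90b1 stood at 942 CPM in Drug-NIHL and 946 CPM in NIHL cells, a ratio of 0.995. Pdia4 stood at 118 CPM in Drug-NIHL and 158 CPM in NIHL cells, with an interval that held 1 (0.482 to 1.15), and Atf4 at 99.6 CPM in Drug-NIHL and 141 CPM in NIHL cells (0.442 to 1.12). Ddit3 had only 22 UMIs in Drug-NIHL and 20 UMIs in NIHL hair cell-like cells. Of 6 members measured there, 3 were past the lower bound (Hspa5, Pdia4 and Atf4) and none past the upper, against 26.8% of all genes below and 21.3% above. With each cell's CPM averaged, none of the 3 was past it: the log2 ratio of Hspa5 was -0.26, that of Atf4 -0.093 against -0.49 as reported, and that of Pdia4 0.20 against -0.42 as reported. Trib3 and Sesn2 had 0 UMIs in hair cell-like cells of both libraries, which allows up to 9.05 CPM in the Drug-NIHL and 8.60 CPM in the NIHL library. In the same cells 11 of 13 immediate early genes, a list that marks stress during dissociation among other things, were past the lower bound with a median log2 ratio of -1.66, and Ppp1r15a, which encodes a phosphatase subunit that ends the translation block, stood at 103 CPM in Drug-NIHL and 261 CPM in NIHL cells. Hba-a1, like Hbb-bs, was higher in these cells, at 2949 CPM in Drug-NIHL and 915 CPM in NIHL cells. The part of the immediate early and haemoglobin genes in the Hspa5 value was not tested.

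Osteoblast-like cells had a chaperone excess in the Drug-NIHL library, and it lay in 1 part of the class. Hsp90b1 stood at 1037 CPM in Drug-NIHL and 725 CPM in NIHL cells, a ratio of 1.43 (1.31 to 1.57). Pdia4 stood at 206 CPM in Drug-NIHL and 110 CPM in NIHL cells, a ratio of 1.88 (1.50 to 2.34). These were 2 of 6 members past the upper bound, against 17.3% of genes, while Hspa5 at 621 CPM in Drug-NIHL and 551 CPM in NIHL cells and Xbp1 at 127 CPM in Drug-NIHL and 125 CPM in NIHL cells lay within it. A finer clustering, looked at after these values were seen, placed 143 Drug-NIHL and 265 NIHL of these cells with fibroblasts. In them Bglap, the osteocalcin gene that defines osteoblasts, was at 36.4 CPM in Drug-NIHL and 69.4 CPM in NIHL cells, and the excess was larger: Hsp90b1 at 1384 CPM in Drug-NIHL and 801 CPM in NIHL cells, Pdia4 at 277 CPM in Drug-NIHL and 107 CPM in NIHL cells, a Pdia4 ratio of 2.59 (1.91 to 3.53). In the 151 Drug-NIHL and 278 NIHL cells that stayed with the osteoblasts, Bglap was at 41348 CPM in Drug-NIHL and 31663 CPM in NIHL cells. There Hsp90b1 had a ratio of 0.877 (0.743 to 1.03) and Pdia4 of 1.01 (0.678 to 1.49), so the excess was not seen in these Bglap-rich cells.

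**Figure D3:**
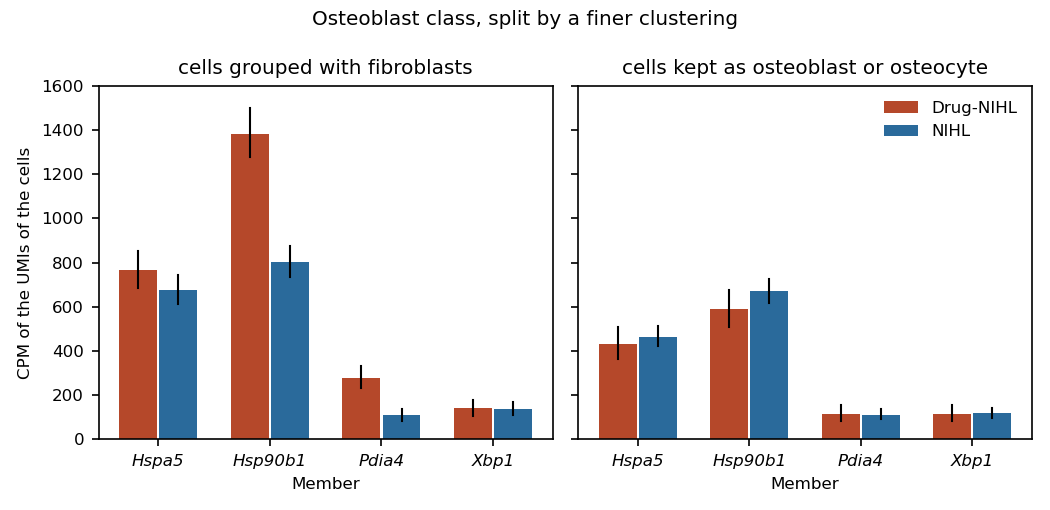
Level in CPM of chaperone-arm genes in cells of the osteoblast-like class, divided by the finer clustering into cells grouped with fibroblasts and cells kept as osteoblasts, Drug-NIHL left of NIHL, with exact 95% intervals for counting error. Hsp90b1 stands at 1384 CPM in Drug-NIHL and 801 CPM in NIHL cells of the first kind, and at 588 CPM in Drug-NIHL and 670 CPM in NIHL cells of the second.

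Macrophage-like cells had 1 member past the bound. Pdia4 stood at 87.7 CPM in Drug-NIHL and 55.3 CPM in NIHL cells, from 156 Drug-NIHL and 99 NIHL UMIs, a ratio of 1.59 (1.22 to 2.06), and its log2 ratio lay between 0.56 and 0.93 under the alternatives. That was 1 of 7 members measured, against 18.2% of genes past the upper bound. P4hb, another disulfide isomerase, stood at 126 CPM in Drug-NIHL and 87.2 CPM in NIHL cells.

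Mucosal epithelium-like cells had Xbp1 and Atf4 past the bound in opposite directions. Xbp1 stood at 348 CPM in Drug-NIHL cells, from 422 UMIs, and 155 CPM in NIHL cells, from 133 UMIs, a ratio of 2.25 (1.84 to 2.75). Atf4 went the other way, at 208 CPM in Drug-NIHL and 380 CPM in NIHL cells, a ratio of 0.548 (0.463 to 0.648). These are 2 of 6 members, against 52.5% of all genes past the bound in this class. Other genes of the class also differed between the libraries: Bpifa1, an airway secretory gene, was at 57150 CPM in Drug-NIHL and 146747 CPM in NIHL cells, Reg3g, a mucosal defence lectin, at 3503 CPM in Drug-NIHL and 162 CPM in NIHL cells, and Krt15, a basal keratin, at 156 CPM in Drug-NIHL and 1471 CPM in NIHL cells. The part of this make-up in the Xbp1 and Atf4 values was not tested. All alternatives kept both directions, with Xbp1 log2 ratios of 1.04 to 1.22 and Atf4 log2 ratios of -0.97 to -0.83.

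**Figure D4:**
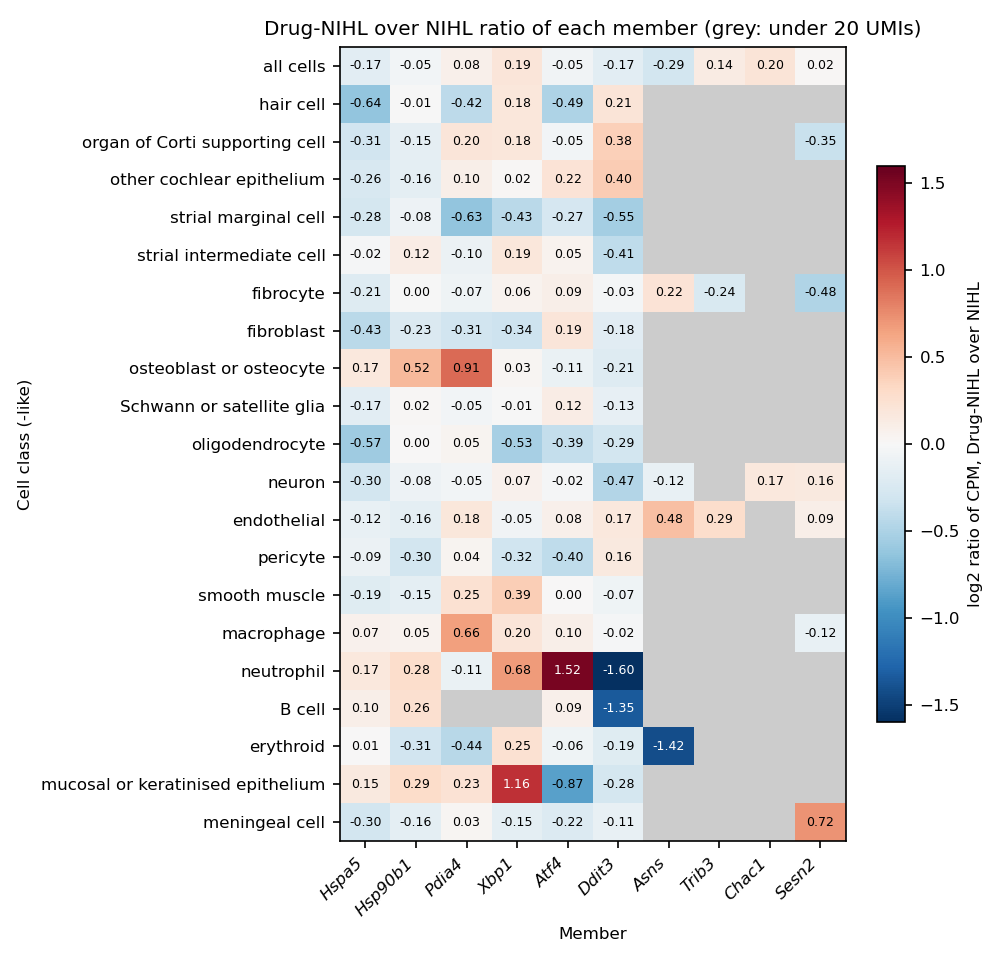
Log2 ratio of Drug-NIHL to NIHL level for each member (columns) and cell class (rows), with a square left grey where fewer than 20 UMIs were counted in both libraries together. Xbp1 in mucosal epithelium-like cells is at 1.16 and Pdia4 in osteoblast-like cells at 0.91, and most other squares lie within 0.32 of 0.

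Atf4 was measured in every class and lay between 75.7 and 251 CPM across the 20 classes in the Drug-NIHL library and between 51.4 and 380 CPM in the NIHL library. Endothelial-like cells were at 251 CPM in Drug-NIHL and 237 CPM in NIHL cells, and neuron-like cells at 165 CPM in Drug-NIHL and 167 CPM in NIHL cells. Neutrophil-like cells stood at 154 CPM in Drug-NIHL cells and 51.4 CPM in NIHL cells, but the second value rests on 10 UMIs. The Atf4 log2 ratio there was 1.52, and it was 0.22 with predicted doublets kept and 0.26 with the 8% highest doublet scores removed from each library. Pericyte-like cells were at 148 CPM in Drug-NIHL and 196 CPM in NIHL cells, a ratio of 0.756 (0.578 to 0.989); 1 of 6 members was past the lower bound there, against 22.5% of genes. With predicted doublets kept the pericyte-like Atf4 log2 ratio was -0.22, against -0.40 as reported.

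Ddit3 was past the upper bound in 2 cochlear epithelial classes and past the lower bound in 5 others. Supporting cell-like cells stood at 134 CPM in the Drug-NIHL library, from 240 UMIs, and 102 CPM in the NIHL library, from 190 UMIs, a ratio of 1.30 (1.07 to 1.58). Other cochlear epithelium-like cells stood at 134 CPM in Drug-NIHL and 101 CPM in NIHL cells, a ratio of 1.32 (1.01 to 1.73), though its log2 ratio was 0.13 at resolution 0.5. Ddit3 was the only member past the upper bound in either class, against 15% of genes in supporting cell-like and 16.1% in other cochlear epithelium-like cells. Neuron-like cells stood at 43.3 CPM in the Drug-NIHL library, from 188 UMIs, and 60.1 CPM in the NIHL library, from 329 UMIs, a ratio of 0.721 (0.599 to 0.865), the only member past the lower bound there, against 11.5% of genes. The supporting cell-like value was of the same direction in both clusters of the class: the one led by Tectb, Tecta and Otol1, genes of the tectorial and otolithic membranes, at 148 CPM in Drug-NIHL and 116 CPM in NIHL cells, and the one led by Ceacam16 at 128 CPM in Drug-NIHL and 95.5 CPM in NIHL cells. Whether the cells of the cluster led by Tectb, Tecta and Otol1 lie in the organ of Corti was not tested. The other epithelial classes had intervals that held 1. Strial marginal-like cells stood at 49.2 CPM in Drug-NIHL and 72.0 CPM in NIHL cells, a ratio of 0.683 (0.388 to 1.20). Mucosal epithelium-like cells had a ratio of 0.826 (0.462 to 1.49) and hair cell-like cells one of 1.16 (0.603 to 2.24). Strial intermediate-like cells, which are not epithelial, had a ratio of 0.752 (0.550 to 1.03). Whether these differences differ from each other was not tested. In neutrophil-like cells Ddit3 rested on 11 Drug-NIHL and 14 NIHL UMIs, and in B cell-like cells on 8 Drug-NIHL and 14 NIHL UMIs.

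Most Asns UMIs came from neuron-like cells. It stood at 139 CPM in Drug-NIHL neuron-like cells, from 606 UMIs, and 152 CPM in NIHL neuron-like cells, from 830 UMIs, a ratio of 0.921 (0.828 to 1.02). Set against the other cells of its library this was 33.5 times higher in the Drug-NIHL library (27.3 to 41.4) and 31.8 times higher in the NIHL library (26.5 to 38.4). Neuron-like cells carried 84.6% of the Asns UMIs of the Drug-NIHL library and 86.0% of those of the NIHL library, while they held 14.1% of all Drug-NIHL and 16.2% of all NIHL UMIs. With each cell thinned to 1000 UMIs and shallower cells left out, 16.6% of 451 Drug-NIHL and 13.7% of 437 NIHL neuron-like cells had an Asns UMI. The shares in Schwann or satellite glia-like cells were 0.290% of 689 Drug-NIHL and 0.187% of 1607 NIHL cells, so neurons stood apart at matched depth too. Without thinning, 67.8% of Drug-NIHL and 75.7% of NIHL neuron-like cells had one, against 0.127% of Drug-NIHL and 0.163% of NIHL glia-like cells. Erythroid-like cells had the 1 Asns ratio past the lower bound, 0.365 (0.161 to 0.774), at 10.8 CPM in Drug-NIHL and 29.6 CPM in NIHL cells, from 11 Drug-NIHL and 24 NIHL UMIs.

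**Figure D5:**
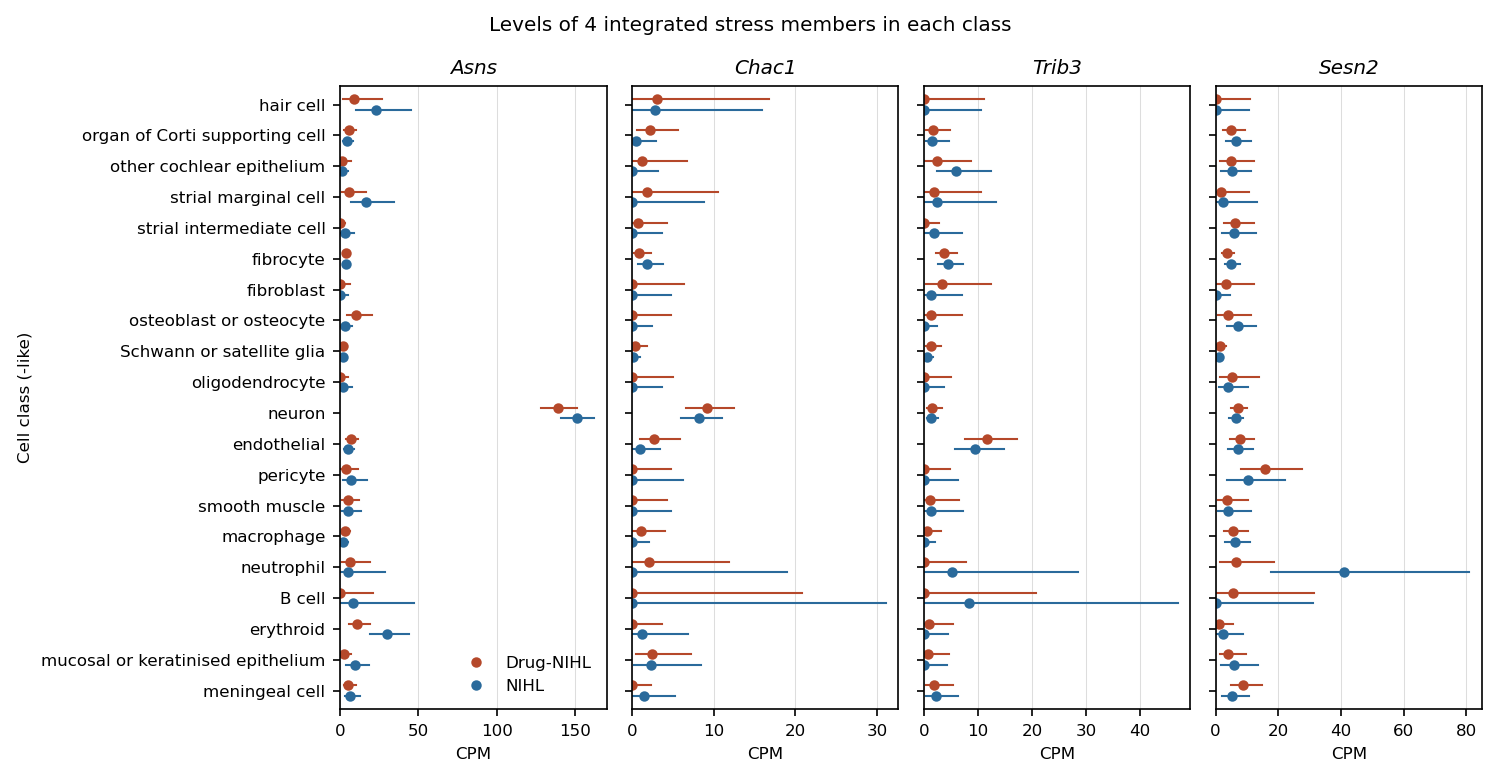
Levels in CPM of the rarer members by cell class, Drug-NIHL and NIHL marks with exact 95% Poisson intervals for counting error. Asns stands at 139 CPM in Drug-NIHL and 152 CPM in NIHL neuron-like cells, and Trib3 at 11.7 CPM in Drug-NIHL and 9.57 CPM in NIHL endothelial-like cells.

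Chac1 was also highest in neuron-like cells. It stood at 9.21 CPM in Drug-NIHL neuron-like cells and 8.21 CPM in NIHL neuron-like cells, from 40 Drug-NIHL and 45 NIHL UMIs, which was 9.71 times the other cells in the Drug-NIHL library (5.75 to 16.7) and 13.7 times in the NIHL library (7.68 to 25.5). Neuron-like cells carried 61.5% of Drug-NIHL and 72.6% of NIHL Chac1 UMIs, and its ratio of Drug-NIHL to NIHL there was 1.12 (0.713 to 1.76). Trib3 was highest in endothelial-like cells and not in the other vessel classes, with 0 UMIs in pericyte-like and 1 UMI in smooth muscle-like cells of each library. In endothelial-like cells it stood at 11.7 CPM in the Drug-NIHL and 9.57 CPM in the NIHL library, from 26 Drug-NIHL and 20 NIHL UMIs, which was 7.60 times the other cells in the Drug-NIHL library (4.50 to 12.6) and 6.07 times in the NIHL library (3.42 to 10.4). Sesn2 stood highest in pericyte-like cells in the Drug-NIHL library, at 15.7 CPM from 12 UMIs, against 10.2 CPM from 6 UMIs in the NIHL library, and at 7.14 CPM in Drug-NIHL and 6.39 CPM in NIHL neuron-like cells. In the NIHL library the highest Sesn2 value, in neutrophil-like cells, rested on 8 UMIs. The 3 genes were measured in few classes (Trib3 in 2, Chac1 in 1 and Sesn2 in 6), and 18 to 19 of 19 neighbouring pairs in their order had overlapping intervals in each library.

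Over all pairs of a member and a class, 131 of 200 had the 20 UMIs needed, and 11 were past the upper and 21 past the lower bound, which is 24.4%. The share of all genes past the bound was 26.3% to 66.1% across the classes, so the share over all pairs was below that of genes in each of the 20 classes. The interval left out 1 in 31 pairs, and 16 pairs met both conditions, so in the other 16 of the 32 pairs past the bound the interval held 1. The bound is one of size alone and takes no account of counting error. Members and genes were not matched for UMI counts, here or in the other comparisons with a share of genes. A lower share among members therefore does not show that they were steadier between the libraries. In the 8 main classes the members past the bound in either direction were 3 of 6 in hair cell-like cells against 48.2% of genes, 2 of 7 in supporting cell-like cells against 32.5%, 1 of 9 in fibrocyte-like cells against 31.8%, 0 of 6 in Schwann or satellite glia-like cells against 28.2%, 1 of 9 in neuron-like cells against 26.3%, 1 of 9 in endothelial-like cells against 27.5%, 1 of 6 in pericyte-like cells against 40.8% and 1 of 7 in macrophage-like cells against 35.4%. Of these 8, only in hair cell-like cells was the share of members above that of genes, by a small margin. Among epithelial, strial and mesenchymal classes it was 1 of 6 in other cochlear epithelium-like cells against 35.1%, 3 of 6 in strial marginal-like cells against 44.7% (Pdia4, Xbp1 and Ddit3, all lower), 1 of 6 in strial intermediate-like cells against 36.8%, 2 of 6 in fibroblast-like cells against 41.7% and 2 of 6 in osteoblast-like cells against 46.1%. In the remaining classes it was 3 of 6 in oligodendrocyte-like cells against 44.2% (Hspa5, Xbp1 and Atf4, all lower), 1 of 6 in smooth muscle-like cells against 39.1%, 3 of 6 in neutrophil-like cells against 66.1%, 1 of 4 in B cell-like cells against 52%, 2 of 7 in erythroid-like cells against 55.4%, 2 of 6 in mucosal epithelium-like cells against 52.5% and 1 of 7 in meningeal-like cells against 36.3%.

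Other genes of the pathways were followed as lists, of which up to 2 genes per direction are named in a main class. Of 17 ER chaperones and folding enzymes measured over all cells, none was past either bound, against 21.7% of genes, and the median log2 ratio was -0.07. In hair cell-like cells 5 of 16 were past the lower bound and none past the upper, a count near the 26.8% of genes past the lower bound there. In osteoblast-like cells 7 of 16 were past the upper bound and none past the lower, against 17.3% of genes past the upper, and their median was 0.30, against -0.08 for all genes. The medians of these genes' own lower and upper interval bounds were -0.07 and 0.67, on either side of 0. In fibrocyte-like cells Herpud1, which helps to clear misfolded protein, stood at 160 CPM in Drug-NIHL and 121 CPM in NIHL cells, and Sec61a1, the channel into the ER, at 65.4 CPM in Drug-NIHL and 47.2 CPM in NIHL cells. In Schwann or satellite glia-like cells Derl2, of ER-associated degradation, stood at 28.5 CPM in Drug-NIHL and 40.5 CPM in NIHL cells, and Dnajb9, a BiP co-chaperone, at 45.8 CPM in Drug-NIHL and 57.6 CPM in NIHL cells.

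Of 31 ATF4 target genes over all cells, 2 were past the upper and 2 past the lower bound, below the 21.7% of all genes past either. Atf3, a stress-induced transcription factor, stood at 71.6 CPM in Drug-NIHL and 136 CPM in NIHL neuron-like cells and at 553 CPM in Drug-NIHL and 822 CPM in NIHL Schwann or satellite glia-like cells, a ratio of 0.525 in the neurons and 0.672 in the glia. In neuron-like cells Slc7a1, an arginine and lysine transporter, stood at 50.4 CPM in Drug-NIHL and 36.7 CPM in NIHL cells. Nupr1, a stress-response regulator, was higher in 3 main classes: in supporting cell-like cells at 577 CPM in Drug-NIHL and 442 CPM in NIHL cells, in Schwann or satellite glia-like cells at 29.1 CPM in Drug-NIHL and 14.9 CPM in NIHL cells, and in endothelial-like cells at 30.2 CPM in Drug-NIHL and 14.8 CPM in NIHL cells. Gdf15, a secreted stress cytokine, was lower in fibrocyte-like cells, at 27.1 CPM in Drug-NIHL and 43.6 CPM in NIHL cells, and in macrophage-like cells, at 28.1 CPM in Drug-NIHL and 52.5 CPM in NIHL cells.

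Part of the ATF4 target list was highest in neurons. Of 27 ATF4 target genes measured, 8 were highest in neuron-like cells in both libraries (29.6%), against 13.3% of 13052 genes. Among them were Mthfd2, a mitochondrial folate enzyme, at 73.9 CPM in Drug-NIHL and 64.8 CPM in NIHL neuron-like cells, Nars, the asparagine tRNA synthetase, at 438 CPM in Drug-NIHL and 408 CPM in NIHL neuron-like cells, and Aars, the alanine tRNA synthetase, at 123 CPM in Drug-NIHL and 127 CPM in NIHL neuron-like cells. The 8 were Mthfd2, Aldh18a1 and the tRNA synthetase genes Aars, Nars, Wars, Sars, Gars and Cars. Other genes of amino acid supply in the list peaked elsewhere in both libraries: Psat1, Psph and Phgdh, of serine synthesis, in oligodendrocyte-like cells, and the transporter genes Slc7a5, Slc3a2 and Slc7a1 in endothelial-like cells. Of 16 ER chaperones and folding enzymes, 6 were highest in a secretory class in both libraries (37.5%), against 14.0% of all genes. The share was 42.9% of 14 immediate early genes and 37.5% of 16 genes of ER-associated degradation and translocation. It was 17.6% of 17 stress sensors and regulators and 3.70% of 27 ATF4 target genes. A high share was therefore not particular to chaperones. These are counts over the lists and no tests. Across the 40 points of 20 classes and 2 libraries, Hsp90b1 and Pdia4 had a Pearson correlation of 0.84 on log2(CPM + 1), Hsp90b1 and Hspa5 of 0.74, Asns and Chac1 of 0.62, and Atf4 and Ddit3 of -0.10. The points share libraries and depth, and these are descriptions. The genes most like Hspa5 over the same points were Rpl41 (0.81), Rnh1 (0.80), Pdia3 (0.79), Eif1a (0.79) and Rpl10 (0.79), and those most like Trib3 were Lzts1 (0.74), Kdr (0.67), Cyp2d22 (0.61), Rasip1 (0.59) and Robo4 (0.58).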

How the data were processed

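The values deposited by the authors are raw counts of UMIs for each gene in each barcode, all whole numbers, and Cell Ranger 5.0.1 is named as the writer, per the file headers. The tools Seurat 3.2.2, STAR and Cell Ranger 5.0 and the builds GRCm38 and mm10 are named without a role, per the submitters' processing notes. The annotation release and the strand setting of the counting are not given in the sources used here. Gene positions were read from GENCODE M21 on GRCm38.

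Cells with at least 300 genes, 500 UMIs and at most 20% mitochondrial UMIs were kept: 20133 of 21773 Drug-NIHL and 17423 of 18545 NIHL barcodes, against roughly 20000 cells stated for both groups. Scrublet in scanpy 1.11.5 marked 2597 Drug-NIHL cells (12.9%) and 805 NIHL cells (4.62%), which were removed; the marking was uneven, so an alternative removed the top 8% of scores in each library, chosen after seeing the data. Both libraries were clustered together without integration on 3000 variable genes chosen without the members and the 5 gene lists, with 30 principal components, 15 neighbours and Leiden resolution 1, giving 37 clusters, 4 of them unnamed. Markers of 30 types named clusters by at least 3 markers at 2 times the other cells in at least 10% of cells and by the 10 leading genes; how leading genes were weighed was adjusted after the clusters were seen.

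UMIs were summed by class and library into CPM, with exact Poisson intervals for levels and exact conditional binomial 95% intervals for ratios. A count of 0 stayed at 0 CPM, and a floor of 3 counts served only to state the level it allows. Log2 ratios add 0.5 UMI to each sum, and a gene needed 20 UMIs in the 2 sums. A gene was counted as higher or lower past 0.32 or -0.32. There is 1 library per group, so no p-value was computed. The intervals were tested only on simulated data, with 200 changed genes. That test cannot show how they hold for differences between real libraries or cells. Named genes were every member, up to 2 genes higher and 2 lower per list in a main class by the interval bound furthest from 1 where the larger sum reached 50 UMIs, and the 5 genes most correlated with Hspa5 and with Trib3; Ttr, the mucosal genes, Bglap, cluster-leading genes and genes highest in neurons were named after their values were seen. Members and lists were chosen with earlier results of these data known. Software was edgeR 4.0.16 in R 4.3.3 (TMM factors), and in Python 3.11.15 matplotlib 3.10.9, igraph 0.11.9, leidenalg 0.10.2, pandas 2.3.3, scipy 1.17.1 and numpy 2.4.6.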

Additional observations from a re-analysis of the deposited data

Results flagged for a closer look

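Atf4 and Ddit3 had ratios of Drug-NIHL to NIHL on opposite sides of 1 in different classes, with intervals that left out 1. For Atf4 the ratio was 2.999 in neutrophil-like cells, against 0.756 in pericyte-like and 0.548 in mucosal epithelium-like cells. For Ddit3 it was 1.30 in supporting cell-like and 1.32 in other cochlear epithelium-like cells, against 0.721 in neuron-like, 0.327 in neutrophil-like and 0.383 in B cell-like cells. The differences between classes were not tested, since each group is 1 library, and the neutrophil-like and B cell-like values rest on few UMIs.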

How the results depend on the processing

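No paired analysis was possible because each group is 1 library. Of 2047 alternatives for single members, 1993 kept the value within its interval, 48 gave one outside it and 6 turned the direction of a value past the bound. The 1993 include settings that could not move a value. No minimum UMI sum and at least 50 UMIs changed only which single members were listed. The share kept is therefore no measure of how firm the values are. With predicted doublets kept, the log2 ratio of Asns in endothelial-like cells was -0.085 (0.48 as reported) and that of Xbp1 in smooth muscle-like cells -0.058 (0.39 as reported). At resolution 2.0, Hsp90b1 in osteoblast-like cells was at -0.12 and Pdia4 there at -0.19. That class both lost and gained cells: it held 481 Drug-NIHL and 558 NIHL cells, of which 151 Drug-NIHL and 278 NIHL cells were of the class as reported. With the mean of each cell's CPM, Pdia4 in hair cell-like cells was at 0.20 and Sesn2 in supporting cell-like cells at 0.28; the cause was not tested. Of 316 alternatives for arm medians and secretory ratios, 308 stayed within the interval. The secretory over neuron median of the Drug-NIHL library was 2.44 with doublets kept and 2.40 with the mean of each cell's CPM, and the secretory over hair cell median of the NIHL library was 1.02 with the mean of each cell's CPM and 0.983 with cells thinned to 1000 UMIs. With at least 1000 genes per cell, the chaperone arm median was 0.072 over all cells and 0.42 in Schwann or satellite glia-like cells, where the integrated stress arm median was 0.22 and the Hspa5 log2 ratio 1.12 against -0.17 as reported. At resolution 2.0 the chaperone arm median of fibrocyte-like cells was 0.26. TMM factors shifted log2 ratios by 0.14 in neutrophil-like, 0.12 in B cell-like and 0.15 in erythroid-like cells. Depth limits Trib3, Chac1 and Sesn2 in most classes and every member in B cell-like and neutrophil-like cells.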
